A study of Homo sapiens with 10 samples.

Results

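The genes described here are 38 genes of glycolysis and of the response to hypoxia, out of the 27992 gene symbols of the RNA-seq table. They were taken by gene symbol, all 38 were found, and each was above 0 in every library. Of these, 23 are genes of glycolysis and of its substrates and products, and 15 are targets, sensors or subunits of the hypoxia pathway. The libraries, 10 in all and 2 for each of 5 conditions, were made from SH-SY5Y, a neuroblastoma line of human origin. The cells had been stably transfected with linearized pcDNA3 carrying the human (hsaFOXP2), chimpanzee (ptrFOXP2), Rhesus monkey (mmuFOXP2) or marmoset (cjaFOXP2) cDNA of FOXP2 isoform I, a forkhead transcription factor, or with the empty vector (pcDNA3). All cells, those with empty vector included, were kept in medium with 15% FCS and 600 µg/ml of the antibiotic geneticin, and pcDNA3 expresses its insert from a viral promoter. Replicates A and B of a condition came from separate transfections of the line. The series' design text speaks of clones while the methods describe no isolation of single clones, so how many founder cells stand behind a library is not known.

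Expression is given as BPKM, in which the bases mapped to a transcript are scaled to its exon length and to all mapped bases of the library, averaged here over the transcripts of a gene. The absolute depth is unknown, and 20200 to 20794 genes per library were above 0. FOXP2 had 1.54 and 0.932 BPKM with hsaFOXP2, 2.09 and 21.8 BPKM with ptrFOXP2, 30.2 and 3.91 BPKM with mmuFOXP2, 14.5 and 18.3 BPKM with cjaFOXP2, and 0.005 BPKM and a listed 0 with pcDNA3. FOXP2 RNA, averaged over the transcript entries of the gene, was thus low in both hsaFOXP2 libraries. It was uneven between the replicates with ptrFOXP2 and mmuFOXP2. For the protein, the paper proposes roughly similar FOXP2 amounts with the human and the non-human cDNAs, from densitometry of Western blots. These RNA values do not measure the protein. Of 10 noradrenergic neuroblastoma genes, 9 reached 1 BPKM, the exception being TH, the tyrosine hydroxylase that defines catecholamine synthesis, at 0.002 BPKM or less. Of the genes listed for other cell types, all 5 fibroblast genes and 1 leukocyte gene (CD68) reached 1 BPKM, and 0 of the 3 endothelial and 0 of the 3 epithelial genes did.

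Glycolysis converts glucose into pyruvate in the cytosol, and cells that reduce the pyruvate to lactate regenerate the NAD+ that the pathway consumes. When oxygen is short, the prolyl hydroxylases of the EGLN family no longer mark the HIF alpha subunits HIF1A and EPAS1 (HIF-2 alpha) for destruction, and these raise the transcription of glucose carriers, glycolytic enzymes, angiogenic factors and mitophagy receptors. HIF is set mainly at the protein level, so the RNA of its subunits does not measure its activity. Neuroblastoma lines in culture, like other tumour lines, use glycolysis also where oxygen is present.

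HIF binds a short core sequence, of which only the form ACGTG was searched for. Both strands were read (as ACGTG or CACGT, overlapping matches counted once). The windows held 300 bases around the gene starts, 250 before and 50 after, from RefSeq promoters on GRCh38.p14. Of the 38 genes, 34 had a window, and SLC2A3, VEGFA, BNIP3L and NDRG1 had none. This form was present in 25 of the 64 windows of these genes (39.1%), against 21.4% of all 35116 windows. It was present in at least 1 window of 21 of the 34 genes (61.8%), against 24.9% of all 27305 genes. The 34 genes had more windows per gene than all genes, which by itself raises the share with at least 1 match. PGK1 and LDHA each had a window with 3 matches, and 0.487% of all windows held 3 or more. A match describes the letters only and does not show binding. The 250 bases before the start are shown for PGK1 and LDHA, the genes with the most matches in a single window, and for CA9, a hypoxia target with a single match, close to its start. They run 5′ to 3′ on the plus strand with each match in capitals, and come from chrX:78103998-78104247 for PGK1 (another of its matches lies past the start), chr11:18394313-18394562 for LDHA and chr9:35673678-35673927 for CA9.
PGK1: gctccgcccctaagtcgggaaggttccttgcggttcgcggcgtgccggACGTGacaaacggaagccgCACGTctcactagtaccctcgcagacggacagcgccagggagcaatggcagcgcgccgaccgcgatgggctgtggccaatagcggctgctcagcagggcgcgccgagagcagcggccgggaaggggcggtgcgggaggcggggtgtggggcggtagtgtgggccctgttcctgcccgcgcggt
LDHA: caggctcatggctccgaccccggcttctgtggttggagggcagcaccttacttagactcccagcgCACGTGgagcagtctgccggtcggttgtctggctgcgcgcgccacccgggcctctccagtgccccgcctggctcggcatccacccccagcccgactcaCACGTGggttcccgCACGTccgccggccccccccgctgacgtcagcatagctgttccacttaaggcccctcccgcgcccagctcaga
CA9: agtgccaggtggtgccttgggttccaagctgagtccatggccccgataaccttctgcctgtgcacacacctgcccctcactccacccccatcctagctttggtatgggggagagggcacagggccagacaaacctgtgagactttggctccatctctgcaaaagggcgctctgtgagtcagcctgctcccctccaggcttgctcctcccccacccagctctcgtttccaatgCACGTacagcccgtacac

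GAPDH was 1 of the genes to which the study's RT-qPCR was normalised, so the site of that measurement is of interest beside its RNA-seq levels. The primers, with no letters singled out, match the GAPDH transcript in exon 1 ahead of the coding sequence (forward, chr12:6534519-6534536, plus strand) and across the junction of exons 2 and 3 in the coding sequence (reverse, minus strand, between 6534860 and 6536510), on GRCh38. They frame 120 bases of the spliced transcript.
GAPDH forward: tctctgctcctcctgttc
GAPDH reverse: gcccaatacgaccaaatcc

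**Figure D1:**
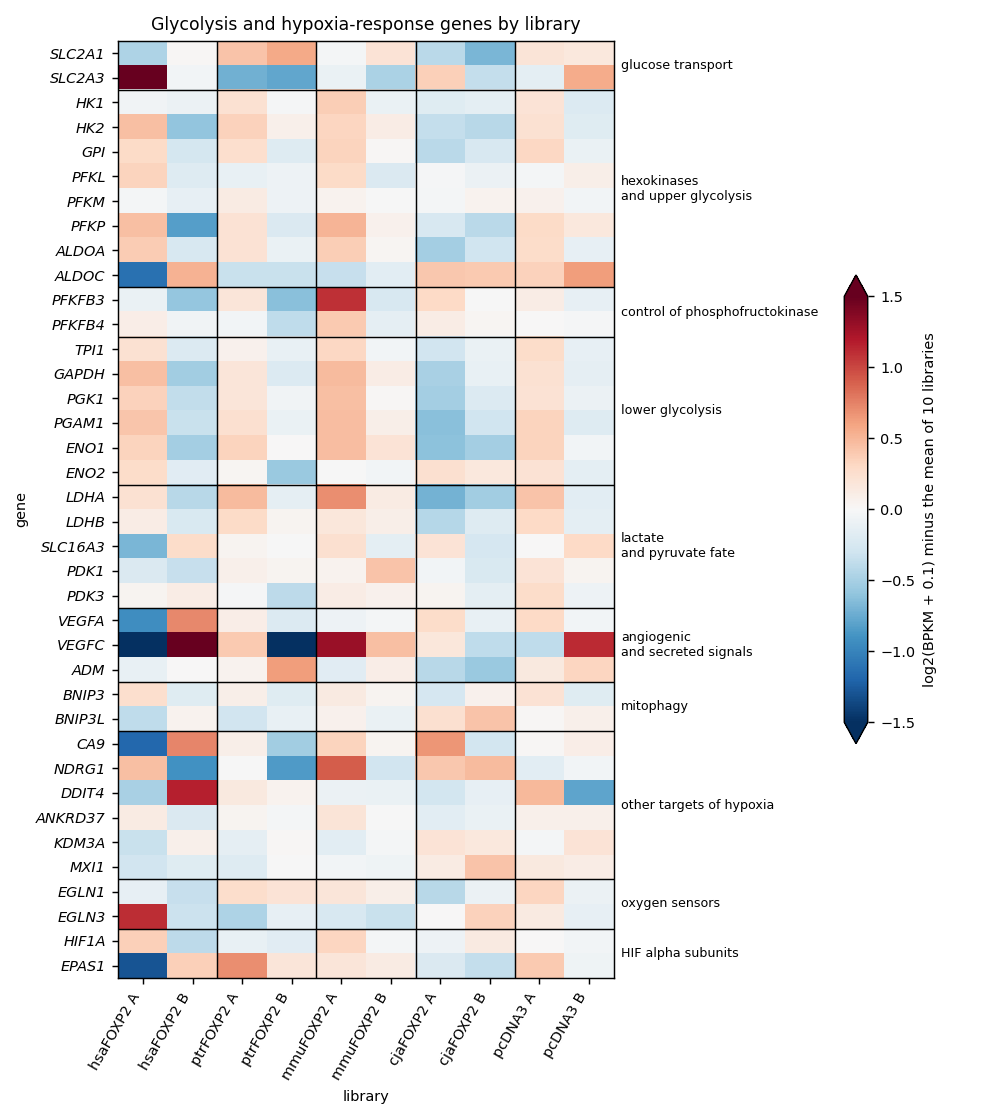
Each row is 1 of the 38 genes, grouped by role, and each column 1 of the 10 libraries. Colour gives log2(BPKM + 0.1) minus the mean of the gene over the 10 libraries, and saturates at 1.5 in either direction. Most glycolytic enzymes are above their mean (red) in replicate A with hsaFOXP2, ptrFOXP2, mmuFOXP2 and pcDNA3 and below it (blue) in both cjaFOXP2 libraries and hsaFOXP2 replicate B, whereas the hypoxia genes share no such pattern.

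The most abundant of the 38 transcripts, on the BPKM scale, which accounts for length, was GAPDH, the NAD+-dependent dehydrogenase of glycolysis, with a mean of 993 BPKM over the 10 libraries. The enolase ENO1 followed with 311 BPKM and the lactate dehydrogenase subunit LDHB with 266 BPKM. The lowest were the neuronal glucose carrier SLC2A3 with 0.204 BPKM, and the pyruvate dehydrogenase kinases PDK3 with 0.738 BPKM and PDK1 with 1.48 BPKM. GAPDH, PGK1, LDHA, ENO1, TPI1 and PGAM1 have processed pseudogenes or close paralogs, with which reads may have been shared. Levels differed between libraries by more than is usual for expressed genes. The ratio of the highest to the lowest library had a median of 1.98 over the 36 of these genes that averaged 1 BPKM or more, against 1.63 over all 13412 such genes, and 19 of the 38 had a ratio above 2. It was 2.004 for GAPDH itself, a ratio exceeded by 25.3% of those 13412 genes.

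The first comparison was that of human FOXP2 with the 3 non-human FOXP2 cDNAs, which the study was made for. None of these genes separated both hsaFOXP2 libraries from all the others. limma, fitted to log2(BPKM + 0.1) of all genes, called 0 of the 38 (smallest adjusted p = 1.0), where 0.00912% of all 21937 genes tested were called. At an unadjusted p under 0.05, 1 of the 38 was higher and 0 were lower, against 4.44% of all genes (3.02% higher and 1.42% lower). That number was 2 without cjaFOXP2 replicate A, and 0 without ptrFOXP2 replicate A or B or mmuFOXP2 replicate B. It also rose without either hsaFOXP2 library, which left 1 to stand for the condition. The shares of all genes in those fits are not given. The median log2 fold change was -0.08 over the 38 genes, 14 of them positive, and 0.01 over all genes. Standard errors of the log2 fold change ran from 0.10 for PFKM, the muscle-type phosphofructokinase, to 1.77 for VEGFC, with a median of 0.26 over the 38 genes. Fold changes on this scale understate those of genes with low BPKM.

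The gene with the unadjusted p under 0.05 was SLC2A3, the least abundant of the 38. It had 0.768 and 0.156 BPKM with hsaFOXP2, against 0.060 and 0.054 BPKM with ptrFOXP2, 0.146 and 0.089 BPKM with mmuFOXP2, and 0.237 and 0.106 BPKM with cjaFOXP2. Replicate B thus lay inside the range of the non-human FOXP2 libraries, and pcDNA3 had 0.138 BPKM in replicate A, inside that range, and 0.288 BPKM in replicate B, above it. Its log2 fold change was 1.19 (SE 0.46, adjusted p = 1.0 from limma), and with 1 hsaFOXP2 library left out it was 0.305 (without A) and 2.07 (without B), with adjusted p = 0.904 and 0.134 in limma. PDK1, which restrains pyruvate dehydrogenase, came next in order of p with 1.25 and 1.13 BPKM with hsaFOXP2, against 1.24 to 2.00 BPKM over the 6 libraries with non-human FOXP2 (log2 fold change -0.33, SE 0.18, adjusted p = 1.0 from limma). The ranges met, since cjaFOXP2 replicate B had 1.24 BPKM. Its relative PDK3 had 0.758 and 0.7995 BPKM with hsaFOXP2, 0.721 and 0.531 BPKM with ptrFOXP2, 0.796 and 0.772 BPKM with mmuFOXP2, 0.756 and 0.650 BPKM with cjaFOXP2 and 0.908 and 0.688 BPKM with pcDNA3, so that hsaFOXP2 lay inside the range of pcDNA3.

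Some genes were steady in all conditions. PFKM had the smallest ratio of the highest to the lowest library, 1.19 (25.3 to 29.97 BPKM). It was followed by ANKRD37, a small ankyrin repeat protein induced by hypoxia, with 1.33 (2.33 to 3.11 BPKM), and by BNIP3, a mitophagy receptor and hypoxia target, with 1.42 (11.5 to 16.4 BPKM). The histone demethylase KDM3A, likewise a target of HIF, ranged over 5.91 to 8.65 BPKM, and hsaFOXP2 replicate A was the lowest. The log2 fold changes of ANKRD37, BNIP3 and KDM3A between hsaFOXP2 and non-human FOXP2 were -0.03 (SE 0.14), 0.05 (SE 0.16) and -0.14 (SE 0.15). Targets of 1 pathway thus differed in how far they varied, with EGLN3 at 2.08 to 6.41 BPKM over the same libraries.

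The study's entry criterion asked that both hsaFOXP2 libraries lie above, or both below, all 8 other libraries. It was met by 0 of the 38 genes, and by 3.85% of the 23348 genes above 0 in at least 1 library (2.23% above and 1.61% below). Applied in the same way to the other conditions, a description chosen after the values were seen, the criterion held with ptrFOXP2 for SLC2A1 (above, as for 1.36% of all genes) and SLC2A3 (below, 2.57%), with 3.92% of all genes in either direction. With mmuFOXP2 and with pcDNA3 it held for 0 genes (1.97% and 2.27% of all genes). With cjaFOXP2 it held for BNIP3L (above, 5.78% of all genes) and for ALDOA, ENO1, LDHA and ADM (below, 7.62%), that is for 5 of the 38, where 13.4% of all genes met it in either direction. The share of the 38 is near that background.

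**Figure D2:**
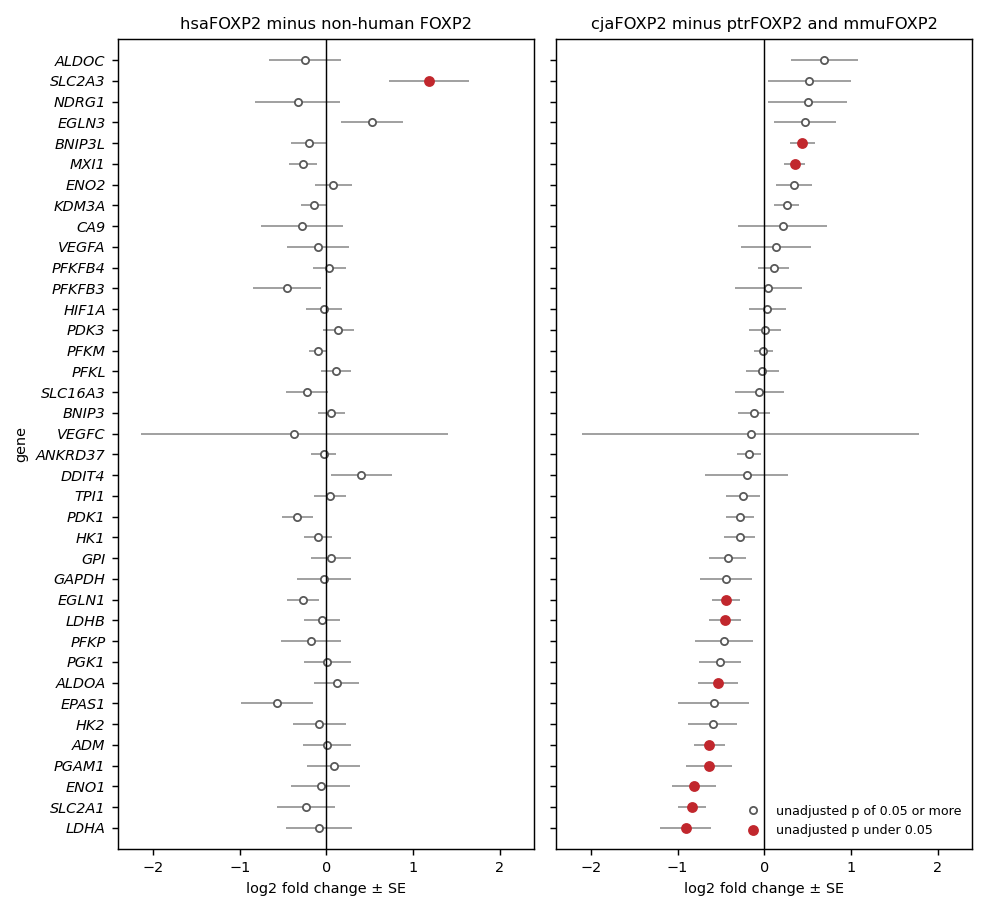
Points are log2 fold changes from limma on log2(BPKM + 0.1) for the 38 genes, with bars of 1 standard error. The left panel sets hsaFOXP2 (2 libraries) against non-human FOXP2 (6 libraries) and the right panel cjaFOXP2 (2 libraries) against ptrFOXP2 and mmuFOXP2 (4 libraries), and filled red points have an unadjusted p under 0.05. There is 1 red point on the left (SLC2A3) and there are 10 on the right, 8 of them negative, and none passed after adjustment.

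The 2 hsaFOXP2 libraries were less alike than the replicates of any other condition. Replicates A and B were more than 2-fold apart, on log2(BPKM + 0.1), in 11 of the 38 genes with hsaFOXP2 (10.3% of all genes), in 1 with ptrFOXP2 (3.39%), in 2 with mmuFOXP2 (3.54%), in 0 with cjaFOXP2 (2.07%) and in 2 with pcDNA3 (2.57%). In 9 of the 38 genes, the hsaFOXP2 replicates lay on opposite sides of the 3 non-human FOXP2 libraries of their own letter, as in 14.4% of all genes. These were VEGFC, VEGFA, CA9, DDIT4, EPAS1, ALDOC and SLC16A3, low in replicate A and high in replicate B, and HK2 and HIF1A, high in replicate A and low in replicate B. The means of hsaFOXP2 for these genes therefore describe neither library.

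VEGFC, a growth factor for lymphatic vessels, was the extreme case. It had 0.162 BPKM in hsaFOXP2 replicate A and 75.6 BPKM in replicate B, a 467-fold difference. In the non-human FOXP2 libraries it had 7.46 and 1.41 BPKM with ptrFOXP2, 14.1 and 7.77 BPKM with mmuFOXP2 and 6.36 and 4.33 BPKM with cjaFOXP2, and it had 4.32 and 12.4 BPKM with pcDNA3. The lowest and the highest of all 10 libraries were thus the hsaFOXP2 pair, and the fold change against non-human FOXP2 was -0.37 on the log2 scale with an SE of 1.77 (adjusted p = 1.0 from limma).

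VEGFA, the angiogenic factor of the classical hypoxia response, went with it on a smaller scale, with 2.23 and 7.17 BPKM in hsaFOXP2 replicates A and B, against 3.75 to 5.26 BPKM with non-human FOXP2 and 5.33 and 4.215 BPKM with pcDNA3. CA9, a carbonic anhydrase of the cell surface, had 0.743 and 3.06 BPKM in hsaFOXP2 replicates A and B, against 1.23 to 2.91 BPKM with non-human FOXP2 and 1.83 and 1.95 BPKM with pcDNA3. In both genes the 2 hsaFOXP2 libraries bracket all 8 others. DDIT4, an inhibitor of mTORC1, had 5.64 and 18.0 BPKM in hsaFOXP2 replicates A and B, against 6.54 to 8.795 BPKM with non-human FOXP2 and 11.1 and 4.53 BPKM with pcDNA3, so that the pcDNA3 pair differed the other way round. The hypoxia genes did not share 1 direction within the hsaFOXP2 pair. Of the 15, 6 were higher in A and the others in B, BNIP3L and KDM3A among them with log2 differences of -0.425 and -0.41. NDRG1 had 7.81 and 2.98 BPKM in hsaFOXP2 replicates A and B, and EGLN3, a prolyl hydroxylase that HIF itself induces, had 6.41 and 2.30 BPKM, each higher in A.

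**Figure D3:**
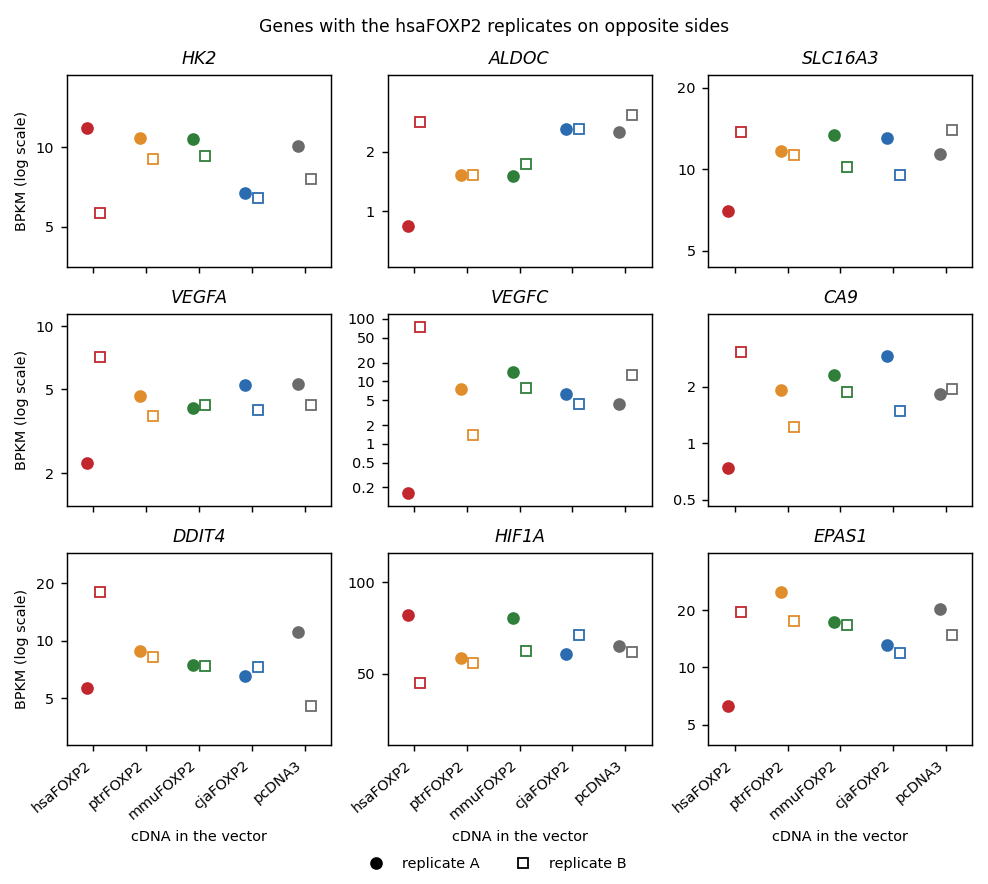
Each panel shows the BPKM of 1 gene in the 10 libraries on a log axis, by the cDNA in the vector, with replicate A as filled circles and replicate B as open squares. In each of the 9 genes the hsaFOXP2 replicates lie on opposite sides of the non-human FOXP2 libraries of their letter, widest for VEGFC at 0.162 and 75.6 BPKM.

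The 2 HIF alpha subunits went in opposite directions within the hsaFOXP2 pair. HIF1A had 77.9 and 46.6 BPKM with hsaFOXP2, against 56.4 and 54.3 BPKM with ptrFOXP2, 76.2 and 59.5 BPKM with mmuFOXP2, 58.1 and 67.1 BPKM with cjaFOXP2 and 61.5 and 59.1 BPKM with pcDNA3. The hsaFOXP2 libraries were the highest and the lowest of the 10, and the other conditions overlapped. EPAS1 had 6.23 and 19.7 BPKM with hsaFOXP2, against 24.98 and 17.4 BPKM with ptrFOXP2, 17.4 and 16.8 BPKM with mmuFOXP2, 13.2 and 11.96 BPKM with cjaFOXP2 and 20.2 and 14.7 BPKM with pcDNA3. hsaFOXP2 replicate A was the lowest of all libraries. HIF1A made up 92.6% and 70.3% of the summed BPKM of the pair with hsaFOXP2. Its share was 69.3% to 84.9% in the other FOXP2 libraries and 75.2% and 80.1% with pcDNA3, so that hsaFOXP2 replicate A alone stood out, as the highest.

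Other readouts differed between the same 2 libraries. The summed level of the 5 fibroblast genes, to which COL3A1 contributes most, was 539 BPKM in hsaFOXP2 replicate A and 1370 BPKM in replicate B, against 466 to 1150 BPKM with non-human FOXP2 and 567 and 829 BPKM with pcDNA3, and none of the 5 was at 0 in any library. They did not all move alike, since PDGFRA had 51.15 BPKM in hsaFOXP2 replicate A and 22.9 BPKM in replicate B, and DCN 2.99 and 3.36 BPKM. The nuclear RNA MALAT1 had 14.6 and 39.1 BPKM and NEAT1 16.2 and 24.3 BPKM in hsaFOXP2 replicates A and B, against 14.6 to 89.9 BPKM and 21.0 to 51.7 BPKM with non-human FOXP2. Their part in the differences of the 9 genes was not tested. In bulk libraries like these, fewer cells of a kind and less RNA per cell cannot be told apart.

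The abundant enzymes of glycolysis were the genes that varied together. Those that averaged 50 BPKM or more, a limit set after their values were seen, were ALDOA, TPI1, GAPDH, PGK1, PGAM1 and ENO1, which lead from fructose bisphosphate to phosphoenolpyruvate, and LDHA and LDHB, which interconvert pyruvate and lactate. All 8 were above their own mean over the libraries in replicate A with hsaFOXP2, ptrFOXP2, mmuFOXP2 and pcDNA3. By contrast, 0 of the 8 were above it in hsaFOXP2 replicate B, in either cjaFOXP2 library and in pcDNA3 replicate B, while 2 were in ptrFOXP2 replicate B and 7 in mmuFOXP2 replicate B. Of all 22238 genes, 9980 to 12986 were above their own mean in the libraries with all 8. In the libraries with 0 of the 8, it was 8679 to 11342. The median deviation over the 8, in log2(BPKM + 0.1), was largest upward in mmuFOXP2 replicate A (0.46) and downward in cjaFOXP2 replicate A (-0.51).

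GAPDH shows the pattern, with 1327 and 672 BPKM with hsaFOXP2, 1098 and 839.6 BPKM with ptrFOXP2, 1346 and 1045 BPKM with mmuFOXP2, 691 and 894 BPKM with cjaFOXP2, and 1137 and 882 BPKM with pcDNA3. Within each condition other than cjaFOXP2 replicate A was the higher, and the 2 hsaFOXP2 libraries spanned nearly the whole range. The difference between hsaFOXP2 and non-human FOXP2 was small beside this spread, since hsaFOXP2 averaged 999 ± 463 BPKM (SD over 2 libraries), against 986 ± 229 BPKM (SD over 6) for non-human FOXP2. ENO1 had 379.8 and 210.8 BPKM with hsaFOXP2, 378 and 301 BPKM with ptrFOXP2, 415 and 347 BPKM with mmuFOXP2, 197 and 210.7 BPKM with cjaFOXP2 and 379.8 and 291 BPKM with pcDNA3. LDHB, which favours the oxidation of lactate, had 284.5 and 224.5 BPKM with hsaFOXP2, 319 and 270.1 BPKM with ptrFOXP2, 296 and 278 BPKM with mmuFOXP2, 195.4 and 229 BPKM with cjaFOXP2 and 323 and 238 BPKM with pcDNA3. Both were highest in an A library and lowest in cjaFOXP2 replicate A, and their log2 fold changes between hsaFOXP2 and non-human FOXP2 were -0.07 (SE 0.35) and -0.05 (SE 0.20). PKM2, the symbol under which the pyruvate kinase of the next step is listed, is not among the 38 and was named for its place in the pathway. It had 642 and 382 BPKM with hsaFOXP2, 580.0 and 455.5 BPKM with ptrFOXP2, 776.5 and 539.6 BPKM with mmuFOXP2, 363 and 405 BPKM with cjaFOXP2 and 563 and 511.5 BPKM with pcDNA3, the same order of replicates in each pair.

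Other genes moved with these enzymes. The mean deviation of 11 proliferation genes, such as MKI67 and TOP2A, was 0.58 and -0.13 with hsaFOXP2, 0.30 and -0.01 with ptrFOXP2, 0.435 and 0.14 with mmuFOXP2, -0.92 and -0.755 with cjaFOXP2, and 0.50 and -0.14 with pcDNA3. It was above 0 in each of the libraries in which all 8 enzymes were above their means, and lowest in the cjaFOXP2 pair. The nuclear RNAs went the other way. MALAT1 and NEAT1 had a median deviation of -1.06 and -0.06 with hsaFOXP2, -0.18 and 1.08 with ptrFOXP2, -0.87 and 0.22 with mmuFOXP2, 0.35 and 0.33 with cjaFOXP2, and -0.375 and 0.57 with pcDNA3. It was below 0 in each of the libraries in which all 8 enzymes were above their means, and above 0 in both cjaFOXP2 libraries. The part of the proliferation genes or of these RNAs in the levels of the enzymes was not tested.

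**Figure D4:**
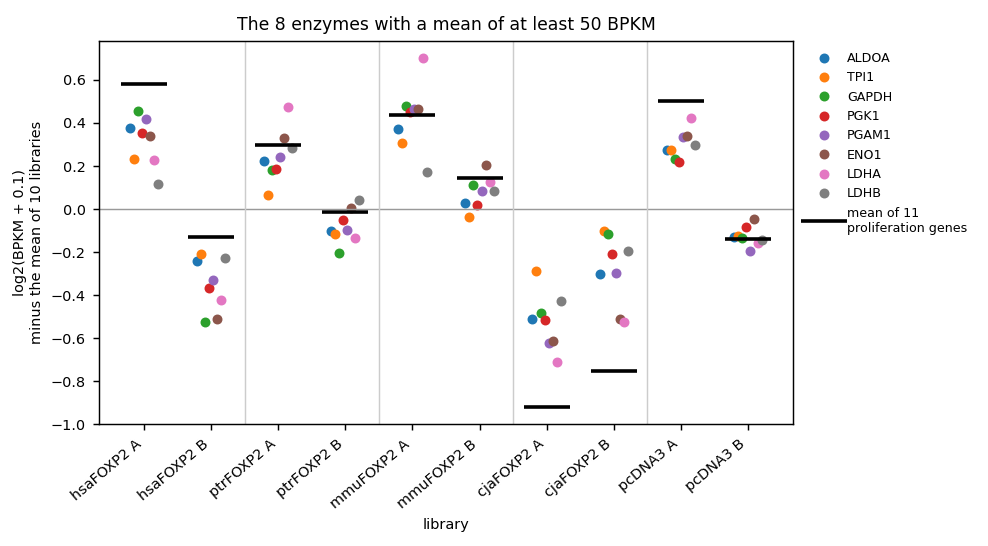
Points give log2(BPKM + 0.1) minus the mean over the 10 libraries for the 8 glycolytic enzymes that averaged 50 BPKM or more, by library, and black bars give the mean of the same quantity over 11 proliferation genes. All 8 points lie above 0 in replicate A with hsaFOXP2, ptrFOXP2, mmuFOXP2 and pcDNA3 and below 0 in hsaFOXP2 replicate B, both cjaFOXP2 libraries and pcDNA3 replicate B, and the black bar lies on the same side of 0 in these 8 libraries.

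Replicate A was set against replicate B over all 5 conditions, since a letter stands for a round of transfection. limma called 0 of the 38 genes (smallest adjusted p = 0.432), as it called 0.0% of all 22238 genes. At an unadjusted p under 0.05, 7 of the 38 differed, all higher in A, against 10.98% of all genes (4.3% higher and 6.68% lower in A). The median log2 difference was 0.18 over the 38 genes and 0.01 over all genes, and 26 of the 38 were positive, among them 20 of the 23 glycolysis genes. Leaving out cjaFOXP2 replicate A or B raised the number of genes at an unadjusted p under 0.05, with 0 called by limma after adjustment. Leaving out either library of ptrFOXP2, mmuFOXP2 or pcDNA3 lowered it. No shares of all genes are given for those fits. MALAT1 was lower in A in all 5 pairs, with 14.6, 29.1, 14.6, 39.6 and 23.4 BPKM in replicate A with hsaFOXP2, ptrFOXP2, mmuFOXP2, cjaFOXP2 and pcDNA3, against 39.1, 89.9, 40.4, 41.6 and 43.9 BPKM in replicate B, and its part in the difference was not tested.

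PFKFB3, which makes the activator of phosphofructokinase, was the first of the 7, with 12.4, 15.1, 28.5, 16.4 and 14.4 BPKM in replicate A with hsaFOXP2, ptrFOXP2, mmuFOXP2, cjaFOXP2 and pcDNA3, against 8.90, 8.57, 11.2, 13.3 and 12.2 BPKM in replicate B in the same order. A was higher in all 5 pairs, although the 2 sets overlapped (log2 difference 0.63, SE 0.17, adjusted p = 0.432 from limma). LDHA had 175, 207, 242, 91.0 and 199.9 BPKM in replicate A, against 111, 136, 162, 104 and 133 BPKM in replicate B, higher in A in every pair but cjaFOXP2 (log2 difference 0.45, SE 0.15, adjusted p = 0.444 from limma). The other 5 were ENO2, the neuronal enolase, PFKP, the platelet phosphofructokinase, HK2, a hexokinase that HIF induces, GPI, the isomerase of the second step, and NDRG1, with log2 differences of 0.30, 0.49, 0.40, 0.31 and 0.64.

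The libraries at the extremes reflect this. mmuFOXP2 replicate A was the highest of the 10 in 13 genes, 11 of them of glycolysis (11.6% of all genes), and cjaFOXP2 replicate A the lowest in 10, 8 of them of glycolysis (23.3%). hsaFOXP2 replicate A was the highest in 8 genes (17.2%) and the lowest in 9 (15.2%). In 5 genes, HK2, PFKP, PFKFB3, PFKFB4 and ENO2, A was higher in all 5 conditions, as in 2.89% of all genes. In 14 genes, A was higher in 4 conditions and lower with cjaFOXP2, as in 19.3% of all genes, and these hold all 8 abundant enzymes together with HK1, GPI, PFKM, BNIP3, EGLN1 and HIF1A. Where several transcript entries of a gene are listed, the mean direction was the same in all of them, except for PDK1. The 6 entries of LDHA, for example, had mean log2 differences of 0.42 to 0.47, and the 9 of PFKFB3 0.60 to 0.66. Of the 38 genes, 0 were lower in A in all 5 conditions, as were 6.34% of all genes.

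Marmoset FOXP2 was set against chimpanzee and Rhesus monkey FOXP2 because the cjaFOXP2 libraries stand apart from the others over many genes. limma called 0 of the 38 genes (smallest adjusted p = 0.121) and 0.0% of all genes, and at an unadjusted p under 0.05 it gave 10 of the 38, 8 lower and 2 higher, against 17.8% of all genes (9.28% lower and 8.52% higher). The number rose without either hsaFOXP2 library. It fell without either cjaFOXP2 library, ptrFOXP2 replicate A or mmuFOXP2 replicate A, and the shares of all genes in those fits are not given. The median log2 fold change was -0.17 over the 38 and -0.01 over all genes. It was -0.285 over the 23 glycolysis genes, 17 of them negative, and 0.03 over the 15 hypoxia genes, 7 of them negative.

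SLC2A1, the main glucose carrier of many tumour cells, had 15.2 and 12.5 BPKM with cjaFOXP2, against 27.3 and 29.9 BPKM with ptrFOXP2 and 19.8 and 23.2 BPKM with mmuFOXP2. The groups did not overlap, though hsaFOXP2 replicate A (14.7 BPKM) lay as low, while hsaFOXP2 replicate B had 20.5 BPKM and pcDNA3 23.1 and 22.5 BPKM. The log2 fold change was -0.84 (SE 0.16, adjusted p = 0.121 from limma, 0.035 to 0.417 over all alternatives). It passed the threshold when either hsaFOXP2 library was left out of the fit that supplies the spread (adjusted p = 0.0361 without replicate A and 0.0350 without replicate B from limma), and the remaining hsaFOXP2 library then adds nothing to that spread. ALDOC, the brain aldolase, passed in the same fits, at 2.61 and 2.60 BPKM with cjaFOXP2, against 1.53 and 1.52 BPKM with ptrFOXP2 and 1.515 and 1.74 BPKM with mmuFOXP2 (log2 fold change 0.69, adjusted p = 0.0466 and 0.0479 from limma, and 0.404 with all libraries).

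ADM, the vasodilator peptide adrenomedullin, had 2.69 and 2.43 BPKM with cjaFOXP2, against 3.75 and 5.62 BPKM with ptrFOXP2 and 3.19 and 3.89 BPKM with mmuFOXP2 (log2 fold change -0.63, SE 0.18, adjusted p = 0.156 from limma). ENO1 had 197 and 210.7 BPKM with cjaFOXP2, against 378 and 301 BPKM with ptrFOXP2 and 415 and 347 BPKM with mmuFOXP2 (log2 fold change -0.81, SE 0.26, adjusted p = 0.178 from limma). LDHA was 91.0 and 104 BPKM with cjaFOXP2, against 207 and 136 BPKM with ptrFOXP2 and 242 and 162 BPKM with mmuFOXP2 (log2 fold change -0.91, SE 0.29, adjusted p = 0.186 from limma). In each of the 3 genes both cjaFOXP2 libraries were below all 8 others, although for ENO1 hsaFOXP2 replicate B (210.8 BPKM) lay next to cjaFOXP2 replicate B (210.7 BPKM).

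The higher genes were BNIP3L, a receptor of mitophagy, and MXI1, a repressor that competes with MYC. BNIP3L had 17.1 and 19.6 BPKM with cjaFOXP2, against 11.9 and 13.4 BPKM with ptrFOXP2 and 15.2 and 13.6 BPKM with mmuFOXP2 (log2 fold change 0.44, SE 0.15, adjusted p = 0.195 from limma). MXI1 had 6.70 and 8.31 BPKM with cjaFOXP2, against 5.37 and 6.12 BPKM with ptrFOXP2 and 5.97 and 5.90 BPKM with mmuFOXP2 (log2 fold change 0.35, SE 0.12, adjusted p = 0.208 from limma). In both genes the cjaFOXP2 libraries were above all 4 with ptrFOXP2 and mmuFOXP2. EGLN1, LDHB, PGAM1 and ALDOA made up the rest of the 10, with log2 fold changes of -0.44, -0.46, -0.64 and -0.53. The proliferation genes were low in the same cjaFOXP2 libraries, where their mean deviations (-0.92 and -0.755) were the lowest of the 10 libraries, and the sum over the 11 was 136 to 151 BPKM with cjaFOXP2, against 248 to 340 BPKM with ptrFOXP2 and mmuFOXP2. All 5 fibroblast genes were higher in both cjaFOXP2 libraries than in those 4, with sums of 901 to 1150 BPKM with cjaFOXP2, against 466 to 699 BPKM. LUM, for example, had 95.8 and 92.3 BPKM with cjaFOXP2, against 19.1 to 38.0 BPKM with ptrFOXP2 and mmuFOXP2. The part of either list in these differences was not tested.

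Against empty vector no gene of the 38 was called either. With any FOXP2 against pcDNA3, limma called 0 of the 38 genes (smallest adjusted p = 1.0) and 0.0045% of all 22238 genes, and 0 of the 38 had an unadjusted p under 0.05 (3.57% of all genes, 2.81% lower). That number was above 0 without either hsaFOXP2 library or ptrFOXP2 replicate B, and the shares of all genes in those fits are not given. The log2 fold change was negative in 32 of the 38, with a median of -0.09 against -0.025 over all genes. The contrasts of single cDNAs with pcDNA3 share the pcDNA3 libraries and are not independent of each other. limma called 0 of the 38 in each of the 4, where it called 0.00899%, 0.00899%, 0.0045% and 0.00899% of all genes with hsaFOXP2, ptrFOXP2, mmuFOXP2 and cjaFOXP2. At an unadjusted p under 0.05 it gave 1 with hsaFOXP2 (4.77% of all genes, 2.65% lower), 0 with ptrFOXP2 (3.38%), 0 with mmuFOXP2 (3.11%) and 3 with cjaFOXP2 (11.03%, 7.12% lower), all of them lower. With hsaFOXP2 the number rose without either of its libraries, and fell without either mmuFOXP2 library or pcDNA3 replicate A. With cjaFOXP2 it rose without either hsaFOXP2 library or pcDNA3 replicate B, and fell without any other library. With ptrFOXP2 it rose without either hsaFOXP2 library, and with mmuFOXP2 without either hsaFOXP2 library or mmuFOXP2 replicate B. Since the shares of all genes in those fits are not given, these moves have no background beside them.

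MXI1 was the gene with hsaFOXP2, at 5.04 and 5.42 BPKM against 6.82 and 6.65 BPKM with pcDNA3 (log2 fold change -0.36, SE 0.14, adjusted p = 1.0 from limma). The 2 pairs did not overlap. ALDOC was called without hsaFOXP2 replicate B (log2 fold change -1.61, adjusted p = 0.0354 from limma), from 0.841 BPKM in replicate A against 2.51 and 3.07 BPKM with pcDNA3, and had a log2 fold change of 0.03 without replicate A, which left 2.84 BPKM in replicate B. The 3 genes with cjaFOXP2 were SLC2A1 (log2 fold change -0.72, SE 0.19, adjusted p = 0.294 from limma), ADM (log2 fold change -0.72, SE 0.21, adjusted p = 0.316 from limma) and ENO1 (log2 fold change -0.71, SE 0.30, adjusted p = 0.445 from limma). Over all 5 conditions, limma's F test called 0 of the 38 (smallest adjusted p = 0.420) and 0.0135% of all genes. It gave 2 of the 38 at an unadjusted p under 0.05, SLC2A1 and ADM, against 8.75% of all genes. The number rose without either hsaFOXP2 library, and fell without cjaFOXP2 replicate B or pcDNA3 replicate A. For those fits too, no share of all genes is given.

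Paralogs shifted against each other between libraries. LDHA, the subunit that favours lactate formation, made up 38.0% and 33.15% of the summed BPKM of LDHA and LDHB with hsaFOXP2. The range was 31.15% to 45.02% with non-human FOXP2, and pcDNA3 gave 38.2% and 35.9%, both inside it. The neuronal enolase ENO2 made up 5.94% and 7.67% of the enolase pair with hsaFOXP2, and 10.65% and 9.47% with cjaFOXP2, against 5.07% and 4.27% with ptrFOXP2 and 4.54% and 5.25% with mmuFOXP2. The cjaFOXP2 libraries had the highest ENO2 shares of all. ENO1 was lowest there, and ENO2 itself was at 23.4 and 22.0 BPKM with cjaFOXP2, against 13.4 to 20.2 BPKM with ptrFOXP2 and mmuFOXP2. ENO2 had 24.0 and 17.5 BPKM with hsaFOXP2 and 22.95 and 17.8 BPKM with pcDNA3, so that hsaFOXP2 replicate A, not cjaFOXP2, was the highest. HK2 made up 28.01% and 16.1% of HK1 and HK2 with hsaFOXP2, against 18.4% to 24.0% with non-human FOXP2, so that the pair again lay on both sides. PFKP made up 55.0% and 37.8% of the 3 phosphofructokinase genes with hsaFOXP2, against 42.4% to 55.5% with non-human FOXP2. No difference between hsaFOXP2 and non-human FOXP2 was found in the shares of LDHA, PFKP, ENO2, ALDOC and HK2 by exact two-sided permutation tests, which 2 against 6 libraries cannot bring under 0.05 (p = 0.643 to 1.0, adjusted p = 1.0 over the 5, smallest possible p = 0.0714).

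**Figure D5:**
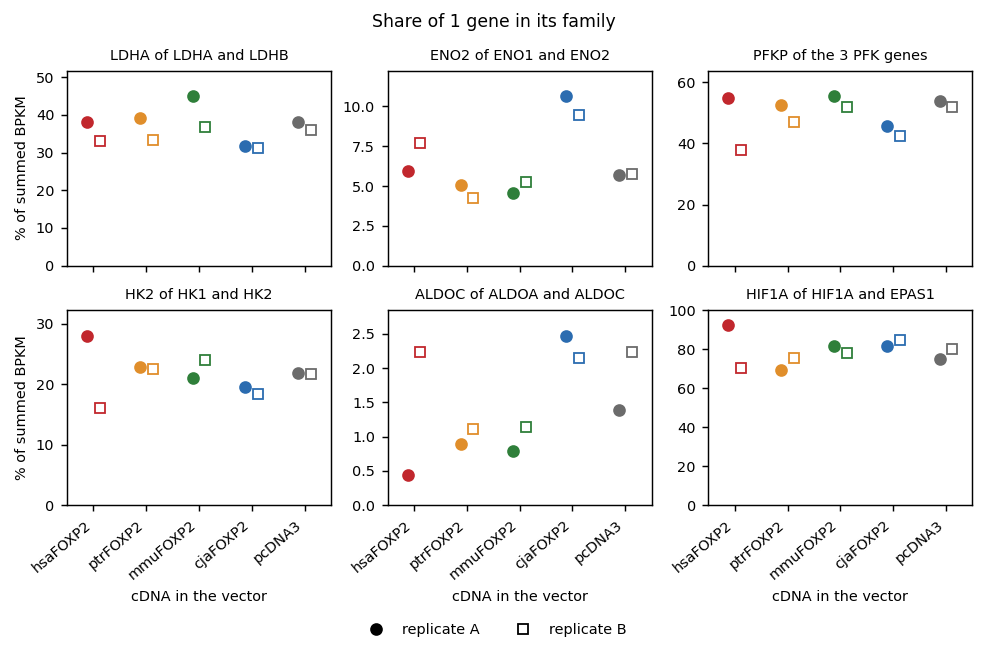
Each panel gives the share of 1 gene in the summed BPKM of its family, in percent, by the cDNA in the vector, with replicate A as filled circles and replicate B as open squares. The ENO2 share is highest in both cjaFOXP2 libraries (10.65% and 9.47%), and the HK2, PFKP, ALDOC and HIF1A shares are furthest apart between replicates with hsaFOXP2.

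Genes of the same pathways outside the 38 were read from 2 further lists, 28 tested genes of glycolysis and glycogen and 57 of the hypoxia response. limma called 0 of either list in every comparison. At an unadjusted p under 0.05 between hsaFOXP2 and non-human FOXP2 there were 0 glycolysis and 6 hypoxia genes, 3 higher and 3 lower (0.0% and 10.5%, against 4.44% of all genes). They include AK4, an adenylate kinase of mitochondria, with 0.831 and 1.36 BPKM with hsaFOXP2, against 1.26 to 1.84 BPKM with non-human FOXP2, and the clock-related repressor BHLHE41, with 1.20 and 1.82 BPKM against 1.77 to 3.85 BPKM. Both overlapped, as did VLDLR, with 2.80 and 3.62 BPKM with hsaFOXP2, against 1.74 to 3.06 BPKM with non-human FOXP2. In MAFF, FUT11 and EPO, both hsaFOXP2 libraries lay outside all 8 others, as in 3.85% of all genes. MAFF, a gene the study had picked on these libraries, had 1.43 and 1.04 BPKM with hsaFOXP2, against 1.555 to 2.14 BPKM. FUT11 had 11.14 and 10.89 BPKM with hsaFOXP2, against 5.69 to 10.76 BPKM. EPO, the hormone erythropoietin, was higher with hsaFOXP2 but under 0.1 BPKM throughout.

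Between any FOXP2 and pcDNA3, 3 of the further hypoxia genes had an unadjusted p under 0.05, all lower (5.26%, against 2.81% of all genes). The chemokine receptor CXCR4 had 0.304 and 0.8287 BPKM with hsaFOXP2, 0.389 and 0.040 BPKM with ptrFOXP2, 0.065 and 0.396 BPKM with mmuFOXP2 and 0.169 and 0.219 BPKM with cjaFOXP2, against 2.46 and 1.21 BPKM with pcDNA3 (log2 fold change -2.43, SE 0.60, adjusted p = 0.531 from limma). All 8 FOXP2 libraries were below both pcDNA3 libraries.

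The further genes differed most with cjaFOXP2 against ptrFOXP2 and mmuFOXP2, with 8 glycolysis and 16 hypoxia genes at an unadjusted p under 0.05 (28.6% and 28.1%, against 17.8% of all genes). TFRC, the transferrin receptor, had 50.25 and 44.3 BPKM with cjaFOXP2, against 96.8 and 101.2 BPKM with ptrFOXP2 and 82.3 and 89.25 BPKM with mmuFOXP2 (log2 fold change -0.96, SE 0.12, adjusted p = 0.0857 from limma). HIF3A, a HIF alpha subunit that can act as an inhibitor of the others, had 2.45 and 2.43 BPKM with cjaFOXP2, against 1.08 and 0.848 BPKM with ptrFOXP2 and 1.16 and 0.950 BPKM with mmuFOXP2 (log2 fold change 1.20, SE 0.19, adjusted p = 0.104 from limma). In neither gene did the groups overlap. Between replicates A and B, 7 of the further glycolysis genes (3 higher and 4 lower in A) and 6 of the hypoxia genes had an unadjusted p under 0.05 (25.0% and 10.5%, against 10.98% of all genes). The share of the hypoxia genes was at the background. CITED2, a HIF-induced competitor for the coactivator p300, was one of them, with 3.72, 17.7, 10.6, 8.25 and 17.9 BPKM in replicate A, against 18.5, 31.0, 22.8, 11.1 and 20.5 BPKM in replicate B.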

How the data were processed

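RNA-seq of poly(A)-selected RNA (600 ng of total RNA per library) was analysed from 10 libraries, 2 per condition, with groups and replicate letters from the sample labels. The authors filtered reads, aligned them to hg19 with STAR (version: not given in the sources used here), summed alignments per UCSC transcript and deposited BPKM, an RPKM on bases in place of reads. Strand use and read counts were not given, so no counting interval can be stated. Gene values are means over transcript entries, and 2 of 80922 entries without a symbol were left out.

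The members and gene lists were chosen with earlier results of these data known. The text may name any of the 38 genes, gives library values for HIF1A, EPAS1, GAPDH, FOXP2, the 3 most and 3 least abundant genes and those with the smallest p (up to 6 per comparison), and takes up to 4 per comparison from the further lists. PKM2, FUT11 and VLDLR, and the values of VEGFC, VEGFA, CA9, DDIT4, ALDOC, NDRG1 and EGLN3, lie outside that rule and were chosen after the values were seen. Some genes of the marker and further lists are not reported here. Differences were tested on log2(BPKM + 0.1) by limma (3.58.1, R 4.3.3; trend and robust moderation) over genes above 0 in at least 2 libraries, at a Benjamini-Hochberg adjusted p of 0.05 over all genes. hsaFOXP2 against non-human FOXP2 used 8 libraries, and all other comparisons a fit of 10. A minus B had condition as a term. P-values measure the spread between transfections of 1 line. Isozyme shares were compared with exact permutation tests. The test was checked on simulated data. Other steps used Python 3.11.15 with scipy 1.17.1, pandas 2.3.3, numpy 2.4.6 and, for plots, matplotlib 3.10.9.

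Per the labels a letter is a transfection round. The comparisons of conditions had no letter term, which was added as an alternative (the replicate block). A minus B correlated between conditions at -0.194 to 0.369, above 0.1 in 5 of 10 pairs. The labels give 2 rounds of transfection and the study's methods 1 more. Alternatives were the pseudocount, the filter, median-ratio scaling, the summary over transcripts, the moderation, the replicate block and leaving out each library. Promoters and primers were placed on GRCh38 (RefSeq promoters on GRCh38.p14, GENCODE 44), and no coordinates are given for the hg19 table.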

Additional observations from a re-analysis of the deposited data

Results flagged for a closer look

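PFKL, the liver-type phosphofructokinase, had 21.5 BPKM in mmuFOXP2 replicate A, far from the 5 other non-human FOXP2 libraries (15.2 to 17.4 BPKM). The gap was 0.647 of the range. Such a gap arises by chance in about 1 in 20 groups, and the 38 genes were all examined.

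In 9 genes the hsaFOXP2 replicates lay on opposite sides of the non-human FOXP2 libraries of their letter, a difference that was not tested. The values in hsaFOXP2 replicates A and B were 11.8 and 5.64 BPKM for HK2, 0.841 and 2.84 BPKM for ALDOC, and 6.98 and 13.8 BPKM for the lactate carrier SLC16A3. They were 2.23 and 7.17 BPKM for VEGFA, 0.162 and 75.6 BPKM for VEGFC, and 0.743 and 3.06 BPKM for CA9. They were 5.64 and 18.0 BPKM for DDIT4, 77.9 and 46.6 BPKM for HIF1A, and 6.23 and 19.7 BPKM for EPAS1. Of all genes, 14.4% met the same condition.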

How the results depend on the processing

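No call of limma among the 38 genes was gained under any alternative other than leaving out a hsaFOXP2 library, and no direction reversed among the genes with an unadjusted p under 0.05. ALDOC, which had none, was at a log2 fold change of -0.79 between hsaFOXP2 and pcDNA3 with all libraries and 0.03 without hsaFOXP2 replicate A. Leaving out 1 library in turn gave 0 to 1 called genes between hsaFOXP2 and pcDNA3 (1, ALDOC, without hsaFOXP2 replicate B) and 0 to 2 between cjaFOXP2 and ptrFOXP2 with mmuFOXP2 (2, SLC2A1 and ALDOC, without either hsaFOXP2 library). The lone library of a condition is then assumed to vary like the others. The replicate block changed no call of limma (0 of the 38 in every comparison), and moved the genes at an unadjusted p under 0.05 over the 5 conditions to 5. Without 1 library in turn, the number of genes at an unadjusted p under 0.05 moved in every comparison. Leaving out a hsaFOXP2 library raised it in each comparison of conditions. The shares of all genes in those fits are not given, so the moves cannot be called particular to the 38 genes. Without the condition term, 4 genes in place of 7 had an unadjusted p under 0.05 between replicates A and B. The entry criterion, met by 0 genes, was met by 2 after median-ratio scaling (PFKM and PDK1) and by 2 with the replicate block, that is within each letter (PDK1 and MXI1). Without 1 library in turn it was met by 0 to 17 genes, 17 without hsaFOXP2 replicate B and 12 without hsaFOXP2 replicate A. It was met by 1 without ptrFOXP2 replicate A (MXI1), cjaFOXP2 replicate A (EGLN1) or cjaFOXP2 replicate B (PDK1). With 1 hsaFOXP2 library left, the criterion asks only that this library be above or below all 8 others. Over the 10 libraries, hsaFOXP2 replicate A was the highest in 17.2% and the lowest in 15.2% of all genes. For hsaFOXP2 replicate B it was 12.6% and 11.6%. The shares of all genes without a library are not given, so 17 and 12 cannot be called particular to the 38 genes. Median-ratio scaling moved the genes higher with hsaFOXP2 than with non-human FOXP2, at an unadjusted p under 0.05, to 565 of 980, against 662 of 973 in the deposited BPKM. With 2 libraries per condition and unknown depth, small differences can be missed.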
